A study of Homo sapiens with 12 samples.

Results

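A set of 10 genes best known from neurons was followed through all 4 groups of a TAF5 depletion and add-back experiment in a human embryonic kidney line. It holds the vesicle genes RAB3A and SYP, the adhesion gene ICAM5, the microtubule genes STMN3, TUBB3 and MAP2, and the intermediate filament genes NEFL, NEFM, NEFH and INA, which are 10 of the 32010 genes in the deposited table. All 10 passed the filter on low counts, which kept 19424 genes. RAB3A, STMN3 and ICAM5 were picked because earlier results from the same libraries showed them changing. Since the comparison behind that choice was not recorded, their values are given as a description with no test in every comparison. Any SE or interval shown for them takes no account of that choice and does not stand in for a test. The other 7 were picked as neuron-type genes that HEK293 cells express, and they were tested with all genes.

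Poly(A) RNA came from HEK293 Flp-In cells, which carry a fixed genomic site for inserting a transgene, and 3 libraries were made for each group. The siNT group was transfected with non-targeting siRNA and the siTAF5 group with a single siRNA against TAF5, a subunit of the promoter-binding complex TFIID. The FL group was treated with the TAF5 siRNA and carried siRNA-resistant full-length TAF5, and the ΔE8 group was treated likewise and carried TAF5 without its exon 8. Doxycycline, which switches on the transgene, was given 24 h after transfection for 48 h, and the labels name siRNA and doxycycline for all 12 libraries. They do not say in which Flp-In line the siNT and siTAF5 cells were grown, so in FL or ΔE8 against those groups the transgene and the line cannot be told apart. The doxycycline doses for FL and ΔE8 also differed, so ΔE8 against FL compares isoform, line and dose together. The labels do not say whether the replicates were separate cultures, so p-values measure the spread between these libraries, which may be technical. In bulk RNA, fewer cells of a type and less RNA per cell cannot be told apart.

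Library totals lay between 41.8 and 62.5 M (mega) estimated counts. TAF5 stood at 40.0 ± 0.698 CPM in siNT, 6.72 ± 0.612 in siTAF5, 105.2 ± 2.44 in FL and 88.0 ± 0.757 in ΔE8 (CPM, scaled counts per 1 M counts, mean ± SD, n = 3 libraries here and below). Of 8 renal progenitor genes, 7 passed the filter, and PAX8 had 0 to 4 counts. Of 8 kidney tubule genes 7 were in the table, 3 passed the filter, and LRP2 at 29.7 to 40.5 CPM made up nearly all of their sum. Of 12 genes of mature neurons 11 were in the table and 9 passed the filter. STMN2 had at most 11 counts and ELAVL4 at most 3 in any library, while MAPT reached 17.5 to 30.6 CPM. The summed level of the mature neuron genes moved with the groups, from 53.9 to 56.1 CPM in siNT to 38.9 to 43.5 in siTAF5, 37.4 to 40.6 in FL and 33.3 to 35.5 in ΔE8. MAPT gave the most of that sum, and 5 of the listed genes reached 1 CPM in any library. Not every gene followed the sum. SYN1, for one, had means of 0.316 CPM in siNT, 0.288 in siTAF5, 0.778 in FL and 0.738 in ΔE8. The renal progenitor sum went from 139 to 142 CPM in siNT to 127 to 129 in siTAF5, 125 to 129 in FL and 116 to 121 in ΔE8, and the kidney tubule sum from 40.5 to 41.6 to 33.4 to 38, 34 to 37.7 and 31 to 33.6. The sum of 8 glial genes, of which 6 passed the filter and SLC1A3 gave the most, was 128 to 137 CPM in siNT, 117 to 120 in siTAF5, 103 to 105 in FL and 98.7 to 108 in ΔE8, with MOG at 0 to 5 counts. Of 9 adrenal chromaffin genes 8 were in the table and 3 passed the filter. Their sum moved the other way, from 3.21 to 3.49 CPM in siNT to 4.8 to 4.97 in siTAF5, 6.77 to 7.45 in FL and 7.04 to 7.31 in ΔE8, with PHOX2A at 0 or 1 count. The part of these lists in the results below was not tested.

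Nerve terminals release transmitter when synaptic vesicles fuse with the plasma membrane. RAB3A is a small GTPase that rides on those vesicles and takes part in their docking, and synaptophysin, the product of SYP, is an abundant protein of their membrane. Axons and dendrites are held in shape by microtubules and by neurofilaments. Neurofilaments are built from the light, medium and heavy chains encoded by NEFL, NEFM and NEFH together with alpha-internexin from INA. TUBB3 encodes a beta-tubulin used as a neuronal marker, MAP2 a protein that binds microtubules in dendrites, and STMN3 a stathmin that binds tubulin and favours microtubule disassembly. ICAM5, or telencephalin, is an adhesion molecule of forebrain dendrites. Many genes of this kind are held down outside neurons by the repressor REST, so the repressor and its partners were followed as well.

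TFIID assembles on core promoters, and the sequence just upstream of the start site is shown for the 3 members picked for a change and for SYP and INA, which rose in both add-back groups. The promoter table holds 7 of the 10 members, with sequences from RefSeq on GRCh38.p14, and NEFL, NEFM and NEFH have no entry in it. Each line gives the 250 bases before the start that RefSeq annotates, 5′ to 3′ on the strand of the gene. For STMN3 the whole window lies inside the span counted for the gene, 63639705 to 63657682, and not before its 5′ end. Capitals mark the GC box GGGCGG and the CCAAT box CCAAT on either strand (CCGCCC and ATTGG in reverse).
RAB3A (chr19:18204043-18204292, minus strand): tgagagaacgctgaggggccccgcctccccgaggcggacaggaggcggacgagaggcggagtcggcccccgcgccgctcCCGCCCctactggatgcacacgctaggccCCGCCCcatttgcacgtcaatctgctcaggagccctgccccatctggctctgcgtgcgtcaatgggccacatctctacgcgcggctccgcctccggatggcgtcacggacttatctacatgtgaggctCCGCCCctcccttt
ICAM5 (chr19:10289702-10289951, plus strand): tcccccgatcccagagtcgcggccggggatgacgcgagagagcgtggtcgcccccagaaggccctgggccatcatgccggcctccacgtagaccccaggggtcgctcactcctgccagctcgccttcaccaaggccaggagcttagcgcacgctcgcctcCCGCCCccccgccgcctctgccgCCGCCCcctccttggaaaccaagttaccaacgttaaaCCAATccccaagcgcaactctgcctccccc
SYP (chrX:49200194-49200443, minus strand): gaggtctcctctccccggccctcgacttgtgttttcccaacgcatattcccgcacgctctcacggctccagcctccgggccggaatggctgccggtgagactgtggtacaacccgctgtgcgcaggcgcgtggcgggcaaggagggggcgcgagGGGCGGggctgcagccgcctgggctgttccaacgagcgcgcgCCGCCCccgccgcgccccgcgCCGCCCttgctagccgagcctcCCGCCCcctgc
STMN3 (chr20:63652767-63653016, minus strand): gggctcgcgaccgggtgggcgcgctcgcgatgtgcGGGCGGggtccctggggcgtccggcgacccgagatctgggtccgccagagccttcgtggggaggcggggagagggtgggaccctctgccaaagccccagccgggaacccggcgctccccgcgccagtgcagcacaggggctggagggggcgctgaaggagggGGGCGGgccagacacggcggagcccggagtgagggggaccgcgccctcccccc
INA (chr10:103276888-103277137, plus strand): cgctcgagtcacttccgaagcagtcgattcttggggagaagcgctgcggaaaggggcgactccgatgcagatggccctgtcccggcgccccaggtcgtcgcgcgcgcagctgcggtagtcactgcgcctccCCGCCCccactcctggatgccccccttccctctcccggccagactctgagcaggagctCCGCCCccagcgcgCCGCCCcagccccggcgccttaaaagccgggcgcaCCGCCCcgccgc
All 5 stretches hold at least 1 GC box, as do 42.3% of 27305 RefSeq promoter stretches of the same length (1 per gene). The 5 were picked by how their genes changed. Of the members not shown, TUBB3 has GC boxes at its listed start 2 and none at start 1. MAP2 has none at its listed starts 1, 2 and 3. Among the 5, ICAM5 alone has a CCAAT box, 30 to 26 bases before its start, and 33% of all stretches hold that motif. The TATA box TATAAA (11.1% of stretches) and the left part of the REST element, TTCAGCACC (0.3% of stretches), were searched on both strands and are not in these 5 windows. No match in them overlapped another. These 5 windows hold 22 (ICAM5) to 31 (SYP) CG pairs, where the median over all stretches was 11 and the upper quartile 23. TUBB3 has 9 at start 1 and 39 at start 2, and MAP2 has 4 to 8.

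Corrected for length, NEFL was by far the most abundant member in siNT, at 84.1 ± 1.43 CPM per kb of annotated exon. STMN3 came next at 18.5 ± 0.919, followed by INA at 11.6 ± 0.452 and ICAM5 at 9.46 ± 0.727. RAB3A was at 4.93 ± 0.229, TUBB3 at 2.9 ± 0.0446 and SYP at 2.26 ± 0.0471. MAP2 (0.641 ± 0.0562), NEFM (0.386 ± 0.00875) and NEFH (0.0712 ± 0.0201) closed the order. Each neighbour in that order differed by more than the SDs of the pair. With the longest annotated transcript as the length, ICAM5 (12.3) passed INA (11.6) and TUBB3 (6.49) passed RAB3A (5.87), and those differences were within the summed SDs for ICAM5 and INA. The order therefore rests on the choice of length for these pairs. The 3 chains of the neurofilament were thus far apart in RNA level, although they assemble together in axons.

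**Figure D1:**
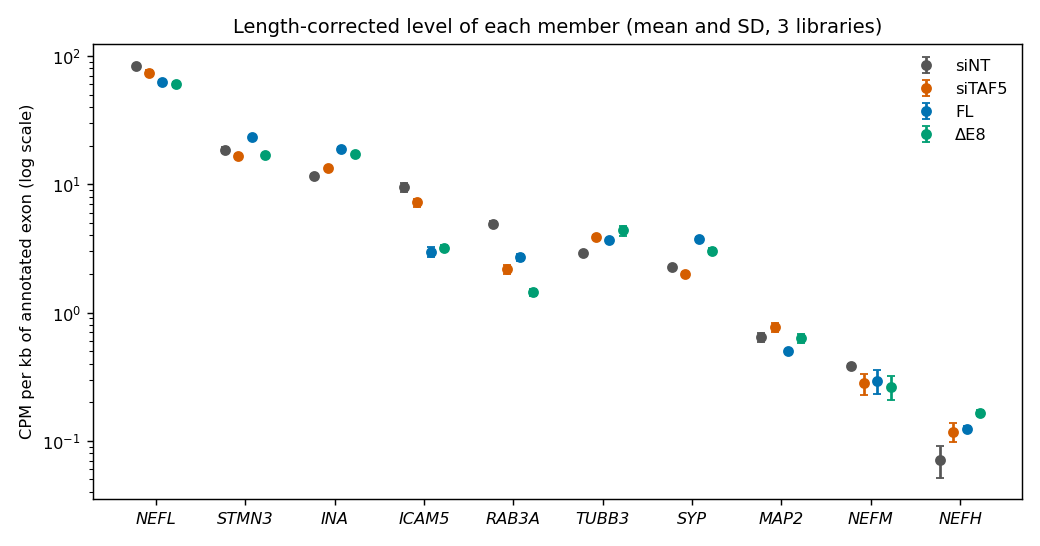
Length-corrected level of the 10 members in the 4 groups (CPM per kb of annotated exon, logarithmic axis). Points are means of 3 libraries and bars are SDs. In siNT the levels run from 84.1 for NEFL down to 0.0712 for NEFH.

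RAB3A (ENSG00000105649, chromosome 19, 18196784 to 18204042, hg38) had 103 to 550 counts per library. The siNT libraries had 9.31, 9.09 and 8.51 CPM and those of siTAF5 had 4.24, 3.59 and 4.00. With FL the level was 5.05, 5.08 and 4.57 CPM, and with ΔE8 it was 2.71, 2.71 and 2.45. No 2 groups overlapped: siNT was highest, then FL, then siTAF5, and ΔE8 was lowest. The FL libraries stood 0.32 above siTAF5 on the log2 scale (SE 0.0861), while the ΔE8 libraries stood 0.58 below it (log2 difference -0.58, SE 0.0934). Against siNT, RAB3A was 1.83-fold lower in FL and 3.4-fold lower in ΔE8. The difference of ΔE8 from FL was -0.90 on the log2 scale (95% interval -1.09 to -0.71). RAB3A shares 165 bases with MPV17L2 on the opposite strand, and the sources used here give no strand setting for the counts. MPV17L2 kept between 20.4 and 24.4 CPM in all 12 libraries.

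SYP (ENSG00000102003, chromosome X, 49187815 to 49200218) had 512 to 1247 counts per library. Levels were 12.1, 11.7 and 11.6 CPM in siNT, 10.9, 10.2 and 10.1 in siTAF5, 20.4, 19.3 and 19.2 in FL. The ΔE8 libraries had 15.1, 16.6 and 15.5 CPM. The 4 groups did not overlap, and both add-back groups stood above siNT. SYP fell 1.13-fold in siTAF5 against siNT (log2 -0.18, SE 0.0544, edgeR adjusted p = 0.0095). It rose 1.89-fold from siTAF5 to FL (edgeR adjusted p = 2.69e-11) and 1.51-fold from siTAF5 to ΔE8 (5.36e-08). In ΔE8 it was 1.25-fold lower than in FL (log2 -0.32, SE 0.0499, edgeR adjusted p = 3.29e-05). The final levels were 1.67-fold (FL) and 1.34-fold (ΔE8) that of siNT, both with edgeR adjusted p values of 6.15e-07 or less. Its ubiquitous relative SYPL1, of a similar membrane protein, lay between 101 and 104.6 CPM in the group means and was not called in any comparison (edgeR adjusted p from 0.18 to 0.951). The SYP antisense gene SYP-AS1 did not exceed 0.0534 CPM.

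ICAM5 (ENSG00000105376, chromosome 19, 10289952 to 10296778) had 460 to 2202 counts per library. It was measured at 40.0, 36.4 and 34.4 CPM in siNT, 29.3, 29.4 and 25.8 in siTAF5, 12.8, 11.6 and 10.7 in FL. In ΔE8 it was at 12.7, 12.9 and 12.01 CPM. The siTAF5 libraries lay below siNT, and both add-back groups lay far below siTAF5 and overlapped each other. ICAM5 was 1.31-fold lower in siTAF5 than in siNT, 3.14-fold lower in FL and 2.93-fold lower in ΔE8. Between ΔE8 and FL the log2 difference was 0.10, with a 95% interval from -0.06 to 0.26. Its relative ICAM3, known from leukocytes, was near 2.5 CPM in siNT (2.54 ± 0.651) and was called only in ΔE8 against FL (1.37-fold higher, edgeR adjusted p = 0.0234) and in ΔE8 against siNT (1.33-fold higher, edgeR adjusted p = 0.0184). ICAM4, named after its values were seen, was at a mean of 4.25 CPM in siNT, 3.71 in siTAF5, 2.34 in FL and 2.47 in ΔE8. It was not called in siTAF5 against siNT (edgeR adjusted p = 0.0966) and was 1.8-fold lower in FL and 1.71-fold lower in ΔE8 than in siNT (8.79e-07 and 1.35e-06). ICAM1 did not pass the filter.

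STMN3 (ENSG00000197457, chromosome 20, 63639705 to 63657682) was at 58.7, 53.2 and 56.1 CPM in siNT, 51.9, 49.1 and 50.5 in siTAF5, 72.8, 69.7 and 68.9 in FL. Values in ΔE8 were 50.7, 52.3 and 51.3 CPM. The FL libraries were above all 9 others, and those of ΔE8 overlapped siTAF5. STMN3 was 1.11-fold lower in siTAF5 than in siNT and 1.4-fold higher in FL than in siTAF5. In ΔE8 against siTAF5 the log2 difference was 0.03 (95% interval -0.049 to 0.105), and in ΔE8 against FL it was -0.46 (SE 0.0361). STMN1, the widely expressed founding member, was called lower in ΔE8 against FL by 1.09-fold (edgeR adjusted p = 0.000643) and was not called in siTAF5 against siNT (adjusted p = 0.227). STMN4, a neural stathmin, measured 0.97 ± 0.14 CPM in siNT, 0.384 ± 0.0322 in siTAF5, 6.1 ± 0.283 in FL and 5.26 ± 0.253 in ΔE8. STMN4 thus fell 2.5-fold with the TAF5 siRNA and rose 15.8-fold (FL) and 13.6-fold (ΔE8) from siTAF5, with edgeR adjusted p values of 3e-06, 2.01e-14 and 3.63e-13. Its siTAF5 level was as low as that of NEFH there (0.443 CPM), near the detection limit, so the size of these folds is uncertain. The difference of STMN4 between ΔE8 and FL was not called (edgeR adjusted p = 0.0676).

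TUBB3 (ENSG00000258947, chromosome 16, 89921392 to 89938761) was at 12.7, 13.1 and 12.7 CPM in siNT, 17.1, 16.7 and 17.8 in siTAF5, 16.0, 16.2 and 16.3 in FL. The ΔE8 libraries had 18.2, 18.4 and 21.2 CPM. All 9 libraries treated with the TAF5 siRNA were above the 3 siNT libraries. TUBB3 rose 1.34-fold in siTAF5 against siNT (log2 0.42, SE 0.0547, edgeR adjusted p = 2.18e-06). In FL against siTAF5 the log2 difference was -0.09 (95% interval -0.20 to 0.02, edgeR adjusted p = 0.187), and scaling by library totals alone moved it past the threshold (-0.14, adjusted p = 0.0481). ΔE8 was 1.12-fold above siTAF5 (edgeR adjusted p = 0.021) and 1.19-fold above FL (log2 0.25, SE 0.054, edgeR adjusted p = 0.00108). The call of ΔE8 against siTAF5 was lost without ΔE8 replicate 3 (log2 0.10, adjusted p = 0.119), without siTAF5 replicate 2 (0.15, 0.0712) and with upper-quartile factors (0.13, 0.0608). The protein-coding gene AC092143.1 shares 14701 bases of its span with TUBB3 on the same strand, and its own estimate reached at most 0.529 CPM. TUBB3 estimates were not whole (by more than 0.05) in 12 of 12 libraries and the same held for NEFL. Their split from similar or overlapping sequence is therefore uncertain. For NEFM and INA this was so in 11 libraries.

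MAP2 (ENSG00000078018, chromosome 2, 209424047 to 209734118) was at 6.81, 7.32 and 8.10 CPM in siNT, 9.60, 8.73 and 8.26 in siTAF5, 5.87, 5.79 and 5.78 in FL. In ΔE8 it was at 7.89, 7.32 and 6.74 CPM. The FL libraries were the 3 lowest of all, and siNT and ΔE8 overlapped. MAP2 rose 1.19-fold in siTAF5 against siNT (log2 0.25, SE 0.0765, edgeR adjusted p = 0.00933). From siTAF5 it fell 1.52-fold to FL (edgeR adjusted p = 3.26e-06) and 1.2-fold to ΔE8 (0.00931), and in ΔE8 it was 1.26-fold above FL (log2 0.34, SE 0.0829, edgeR adjusted p = 0.00295). FL ended 1.28-fold below siNT (adjusted p = 0.00109). The ΔE8 mean lay at the siNT mean, with a log2 difference of -0.01 and a 95% interval of -0.18 to 0.15. MAP2 had 244 to 497 counts per library, and the 2 smallest of these calls did not pass in some fits with 1 library fewer. The rise in siTAF5 was lost without siNT replicate 1 (log2 0.20, adjusted p = 0.0523) or siTAF5 replicate 1 (0.18, 0.0842), and the fall from siTAF5 to ΔE8 without ΔE8 replicate 3 (-0.21, 0.057) or siTAF5 replicate 1 (-0.20, 0.0705).

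**Figure D2:**
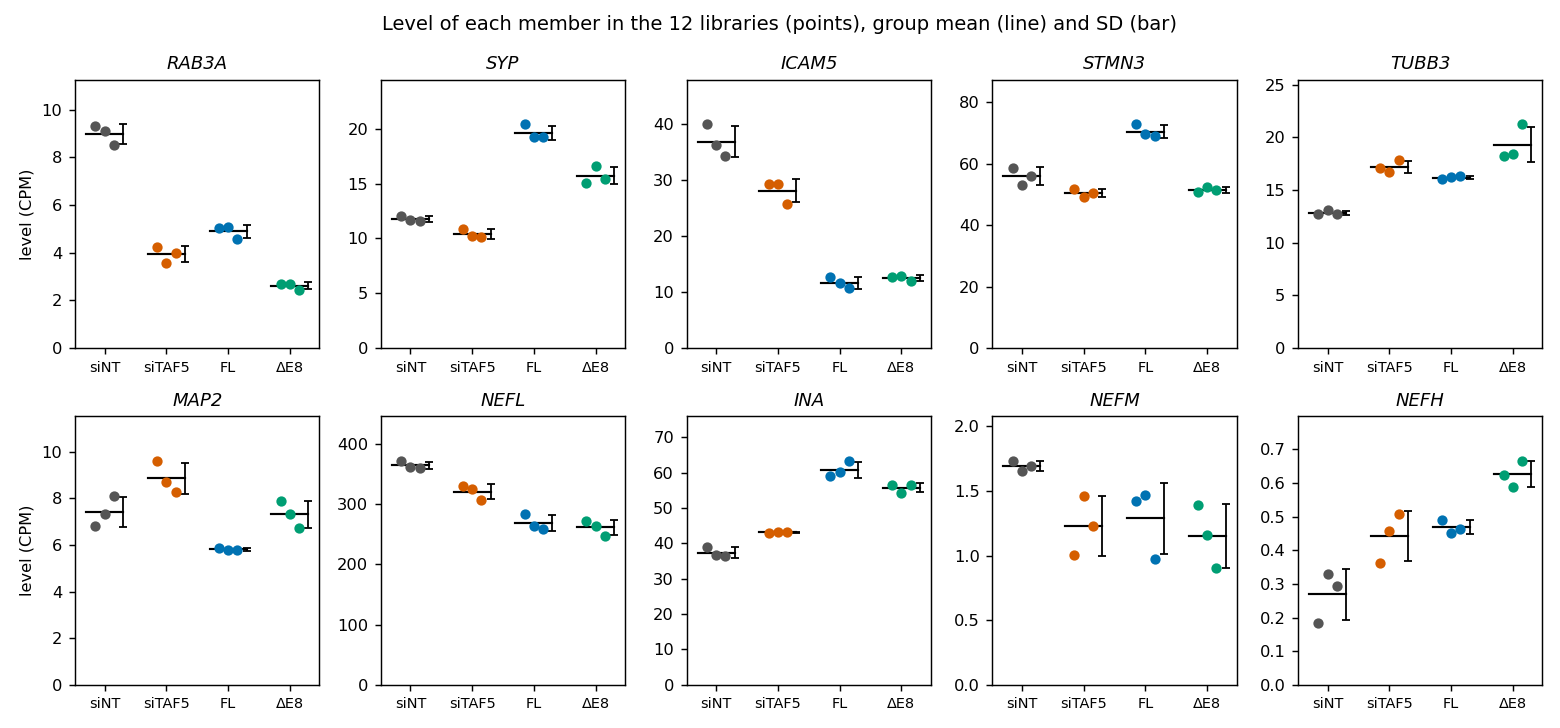
Level of each member (CPM, linear axes that start at 0) in the 12 libraries, 3 points per group, with the group mean as a line and the SD as a bar. RAB3A is highest in siNT and lowest in ΔE8, SYP and INA are highest in FL, and ICAM5 lies between 10.7 and 12.9 in both add-back groups.

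NEFL (ENSG00000277586, chromosome 8, 24950955 to 24956721) was at 371.2, 361.1 and 360.1 CPM in siNT, 330.3, 325.8 and 306 in siTAF5, 283.6, 264.2 and 258.8 in FL. Values in ΔE8 were 271.9, 263.7 and 247.7 CPM. The level stepped down from siNT to siTAF5 and again to the add-back groups, which overlapped. NEFL fell 1.14-fold in siTAF5 against siNT (log2 -0.18, SE 0.036, edgeR adjusted p = 0.000253). It fell a further 1.19-fold to FL (7.88e-06) and 1.23-fold to ΔE8 (2.42e-06) by the same edgeR adjusted test. ΔE8 and FL were not called different (log2 -0.04, 95% interval -0.12 to 0.03, edgeR adjusted p = 0.401). The antisense gene AC107373.2, which overlaps NEFL, had 0.812 to 1.27 CPM, and AF106564.1, which overlaps NEFM, had 0.476 to 0.86.

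INA (ENSG00000148798, chromosome 10, 103277138 to 103290346) lies 77619 bases before TAF5 on the same strand. Its level was 39.1, 36.7 and 36.5 CPM in siNT, 42.9, 43.2 and 43.3 in siTAF5, 59.0, 60.2 and 63.3 in FL. The ΔE8 libraries had 56.5, 54.4 and 56.5 CPM. The 4 groups did not overlap and siNT was the lowest. INA rose 1.15-fold in siTAF5 against siNT (log2 0.21, SE 0.0356, edgeR adjusted p = 6.99e-05), while TAF5 itself fell there. From siTAF5 it rose 1.41-fold to FL (edgeR adjusted p = 4.82e-10) and 1.29-fold to ΔE8 (1.01e-07), and it stood 1.62-fold (FL) and 1.49-fold (ΔE8) above siNT. ΔE8 was 1.09-fold below FL (log2 -0.12, SE 0.034, edgeR adjusted p = 0.0068), a call that was lost without ΔE8 replicate 2 (log2 -0.10, adjusted p = 0.0558).

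NEFM (ENSG00000104722, chromosome 8, 24913758 to 24919098), whose gene lies 31856 bases from NEFL, had only 38 to 104 counts per library. It was at 1.73, 1.65 and 1.70 CPM in siNT, 1.00, 1.46 and 1.23 in siTAF5, 1.42, 1.47 and 0.974 in FL. In ΔE8 it was at 1.40, 1.16 and 0.902 CPM. The siNT libraries were above the other 9, which overlapped one another. In siTAF5 against siNT NEFM fell 1.37-fold (log2 -0.45, SE 0.178, edgeR adjusted p = 0.0424). That call was lost with any of siNT replicates 1, 2 and 3 or siTAF5 replicates 1 and 3 left out (log2 -0.35 to -0.47, adjusted p from 0.0708 to 0.151), with DESeq2 (0.0924) and with library totals alone (0.0592). FL against siNT was not called (log2 -0.38, edgeR adjusted p = 0.0802). ΔE8 against siNT was called lower by 1.45-fold (edgeR adjusted p = 0.0146), but not without ΔE8 replicate 3 (log2 -0.41, adjusted p = 0.0691).

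NEFH (ENSG00000100285, chromosome 22, 29480218 to 29491390) was near the detection limit, with 10 to 38 counts per library. It was at 0.184, 0.331 and 0.293 CPM in siNT, 0.362, 0.457 and 0.509 in siTAF5, 0.491, 0.451 and 0.464 in FL. Values in ΔE8 were 0.624, 0.588 and 0.665 CPM. The siNT libraries were below the other 9, and ΔE8 was above all others. NEFH rose 1.64-fold in siTAF5 against siNT (log2 0.71, SE 0.271, edgeR adjusted p = 0.0353), 1.73-fold in FL against siNT (0.0196) and 2.28-fold in ΔE8 against siNT (0.00046). The first call was lost without siNT replicate 1 (log2 0.51), siNT replicate 3 (0.77), siTAF5 replicate 2 (0.68) or siTAF5 replicate 3 (0.59), with adjusted p from 0.0544 to 0.151, and with DESeq2, with no filter and with the 2 groups alone (0.12, 0.0754 and 0.0601). The call of FL against siNT was lost without FL replicate 1 (log2 0.75, adjusted p = 0.0609), without siNT replicate 1 (0.59, 0.0932) and with DESeq2 (0.0818). ΔE8 against FL was not called for NEFH (log2 0.41, 95% interval -0.11 to 0.92).

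Counted over the 7 tested members, 4 were called higher (NEFH, INA, TUBB3 and MAP2) and 3 lower (NEFL, NEFM and SYP) in siTAF5 against siNT. Leaving out a library left 4 to 6 of the 7 called, with 4 without siNT replicate 1. The background was high: 49.7% of all tested genes were called in that comparison, 24.7% higher and 25% lower. The median log2 change of the 7 was 0.21, beside 0.00 over all genes, and their median size of change was 0.25, beside 0.19. In FL against siTAF5, INA and SYP rose and NEFL and MAP2 fell, with 48.8% of all genes called (24.4% higher and 24.4% lower, or 4745 and 4732 genes, and 3748 and 5788 with library totals alone). In ΔE8 against siTAF5, INA, TUBB3 and SYP rose and NEFL and MAP2 fell, with 40.6% of all genes called (20% higher and 20.6% lower, or 3891 and 3993 genes, and 3201 and 4687 with upper-quartile factors). Without ΔE8 replicate 3, 3 of these 5 members were called. These comparisons share the siTAF5 libraries, so the add-backs were also compared directly. In ΔE8 against FL, TUBB3 and MAP2 were higher and INA and SYP lower in ΔE8, with 37% of all genes called (17.3% higher and 19.7% lower, or 3359 and 3819 genes, and 4072 and 3184 with library totals alone), a median of -0.04 over the 7 and -0.01 over all genes. Against siNT, whose libraries the next 2 comparisons share, 4 members were higher and 2 lower in FL, where 54.6% of all genes were called (27.8% higher and 26.8% lower). The count was also 4 higher and 2 lower in ΔE8, where 62.2% of all genes were called (30.8% higher and 31.4% lower). In each of the 6 comparisons, some tested members were called higher and others lower.

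**Figure D3:**
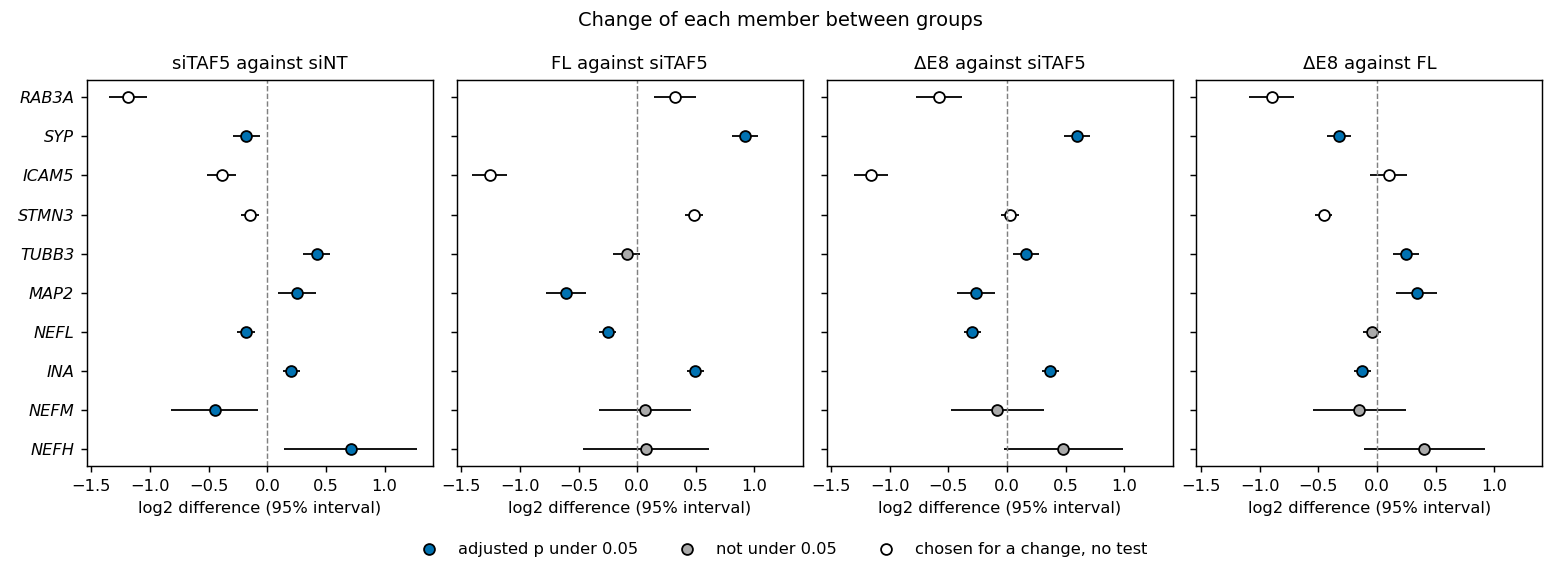
Log2 difference of each member in 4 comparisons, with 95% intervals (horizontal axis, points to the right are higher in the first-named group). Filled blue points passed an adjusted p of 0.05, grey points did not, and open points are the 3 members picked for a change, shown with no test. SYP rises by 0.92 in FL and by 0.60 in ΔE8 against siTAF5, whereas RAB3A has 0.32 and -0.58.

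Other genes of the same roles were read from lists written from general knowledge, but with earlier results of these data known. The shares called in the lists are therefore not independent of these data. No list was tested as a set, and the share of all genes called was not matched to the lists for expression level. Of 48 further cytoskeleton genes (tubulins, microtubule-binding proteins, filaments, kinesins), 46 were tested. In siTAF5 against siNT 9 rose and 24 fell, which is 71.7% called beside 49.7% of all genes, with a median log2 change of -0.13 beside 0.00 over all genes. The 4 genes with the largest called change at a mean log2 CPM of at least 1 over all 12 libraries fell. They were STMN4 and PRPH, which encodes the filament protein peripherin (1.71-fold, edgeR adjusted p = 1.22e-05), with KIF1A and DYNC1I1. The axonal kinesin KIF1A fell 1.41-fold, from 309.8 ± 15.9 to 220.2 ± 4.9 CPM (edgeR adjusted p = 1.13e-09). The dynein intermediate chain gene DYNC1I1 fell 1.39-fold (edgeR adjusted p = 0.000127). STMN4 had a mean below 1 CPM in both groups compared and met that level only through FL and ΔE8. In ΔE8 against FL 7 rose and 22 fell (63% called beside 37% of all genes, median -0.13 beside -0.01). TUBB, a main beta-tubulin, was 1.29-fold lower in ΔE8 at 1860 ± 14.9 CPM against 2393 ± 24.6, KIF1A 1.28-fold lower and PRPH 1.36-fold lower, while VIM, the intermediate filament vimentin, was 1.29-fold higher (edgeR adjusted p values from 3.61e-11 to 0.0091). Of the neuronal beta-tubulins in the fixed set of relatives, TUBB2A rose 1.2-fold in siTAF5 against siNT (edgeR adjusted p = 2.24e-06) and was 1.13-fold higher in ΔE8 than in FL (0.000373). TUBB2B was called in neither comparison (edgeR adjusted p = 0.532 and 0.605). It was lower in FL and ΔE8 than in siTAF5 (1.25-fold and 1.28-fold, edgeR adjusted p = 2.54e-07 and 2.44e-07). TUBB2B was also below siNT there (1.28-fold and 1.3-fold, edgeR adjusted p = 6.58e-08 and 1.16e-08). MAP1B, an axonal microtubule-associated protein, fell 1.21-fold in siTAF5, rose 1.28-fold from there to FL, and was 1.24-fold lower in ΔE8 than in FL (edgeR adjusted p from 8.48e-09 to 3.31e-07). TUBB2A and TUBB2B are close copies, so the split of reads between them is uncertain.

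Of 62 vesicle and secretion genes, 61 were in the table and 55 were tested. In siTAF5 against siNT 16 rose and 17 fell (60% called beside 49.7% of all genes, median -0.03 beside 0.00), and in ΔE8 against FL 9 rose and 18 fell (49.1% called beside 37%, median -0.07 beside -0.01). RAB3B and RAB3D, close relatives of RAB3A, were among them. RAB3B was at 41.8 ± 2.08 CPM in siNT, 32.1 ± 0.852 in siTAF5, 28.8 ± 1.59 in FL and 25.5 ± 1.08 in ΔE8. RAB3D was at 15.8 ± 0.31, 11.7 ± 0.607, 9.92 ± 0.494 and 8.43 ± 0.489 CPM in the same order. Both fell in siTAF5 (1.3-fold and 1.35-fold) and were lower in ΔE8 than in FL (1.13-fold and 1.17-fold), with edgeR adjusted p from 5.69e-07 to 0.00785. From siTAF5 to FL, where RAB3A stood higher, RAB3B fell 1.11-fold (edgeR adjusted p = 0.00877) and RAB3D 1.17-fold (0.00289). RAB3C, named after its values were seen, was low, with means of 0.426, 0.353, 0.925 and 0.683 CPM in siNT, siTAF5, FL and ΔE8. From siTAF5 it rose 2.58-fold to FL and 1.93-fold to ΔE8 (edgeR adjusted p = 4.87e-05 and 0.00309), and it was called neither in siTAF5 against siNT (0.407) nor in ΔE8 against FL (0.124). RIMS3, of the RIM proteins that act at the active zone, went from 30.3 ± 0.98 CPM in siNT to 16.4 ± 0.145 in siTAF5, 17.7 ± 1.81 in FL and 11.9 ± 0.581 in ΔE8. RIMS3 fell 1.85-fold in siTAF5 and was 1.49-fold lower in ΔE8 than in FL (edgeR adjusted p = 1.1e-10 and 5.25e-07). RAB27B, another secretory Rab, fell 1.68-fold and was 1.47-fold lower in ΔE8 than in FL (edgeR adjusted p = 3.22e-07 and 6.37e-05), and RAB3IL1, an exchange factor for Rab proteins, was 1.29-fold lower in ΔE8 (edgeR adjusted p = 0.0029). NSF, the ATPase that takes apart SNARE complexes after fusion, moved the other way. It rose 1.7-fold in siTAF5, to 146 ± 1.19 from 85.8 ± 1.54 CPM, and was 1.42-fold higher in ΔE8 than in FL (edgeR adjusted p = 2.22e-14 and 2.24e-11). CHGA, the granule protein chromogranin A, rose 2.35-fold in siTAF5 from 1.04 ± 0.119 CPM (edgeR adjusted p = 1.48e-07). The level that let CHGA be named is a mean over the 12 libraries, with 2.77 CPM in FL and 3.51 in ΔE8.

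Of 32 adhesion genes, 31 were in the table and 23 were tested, of which 3 rose and 8 fell in siTAF5 against siNT (47.8% called, median -0.01). That share is near the 49.7% of all genes called, so the count shows nothing particular about the list. NLGN2, the neuroligin of inhibitory synapses, fell 1.72-fold (61.9 ± 2.7 to 35.95 ± 1.08 CPM), the neurexin gene NRXN2 1.57-fold, the contactin gene CNTN1 1.41-fold and LRFN4 1.33-fold, with edgeR adjusted p from 7.16e-12 to 9.89e-05. In ΔE8 against FL 3 rose and 9 fell (52.2% called beside 37% of all genes, median -0.10 beside -0.01), with NLGN2 1.43-fold, LRFN4 1.28-fold and CNTN1 1.21-fold lower (edgeR adjusted p from 1.55e-08 to 4.29e-05).

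Of 16 genes of REST and its partners, all were tested. In siTAF5 against siNT 8 rose and 2 fell (62.5% called beside 49.7% of all genes, median 0.12 beside 0.00), and in ΔE8 against FL 7 rose and 3 fell (62.5% called beside 37%, median 0.07 beside -0.01). REST itself was at 54.1 ± 2.31 CPM in siNT, 51.8 ± 1.2 in siTAF5, 53.6 ± 1.01 in FL and 56.9 ± 2.44 in ΔE8. It was called in ΔE8 against siTAF5 (1.1-fold higher, edgeR adjusted p = 0.00591) and in none of the other 5 comparisons (adjusted p from 0.0743 to 0.785). The corepressor genes RCOR1 and RCOR3 rose 1.23-fold and 1.34-fold in siTAF5, and SIN3B and the histone methyltransferase gene EHMT2 1.24-fold and 1.21-fold (edgeR adjusted p from 5.37e-09 to 4.99e-07). RCOR1, RCOR3 and SIN3B were also higher in ΔE8 than in FL, by 1.2-fold, 1.24-fold and 1.16-fold, as was RCOR2 by 1.24-fold (edgeR adjusted p from 1.18e-06 to 0.00685). Unlike those genes, RCOR2 was lower in both add-back groups than in siNT. Its means were 9.25 CPM in siNT, 10.2 in siTAF5, 5.24 in FL and 6.53 in ΔE8.

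**Figure D4:**
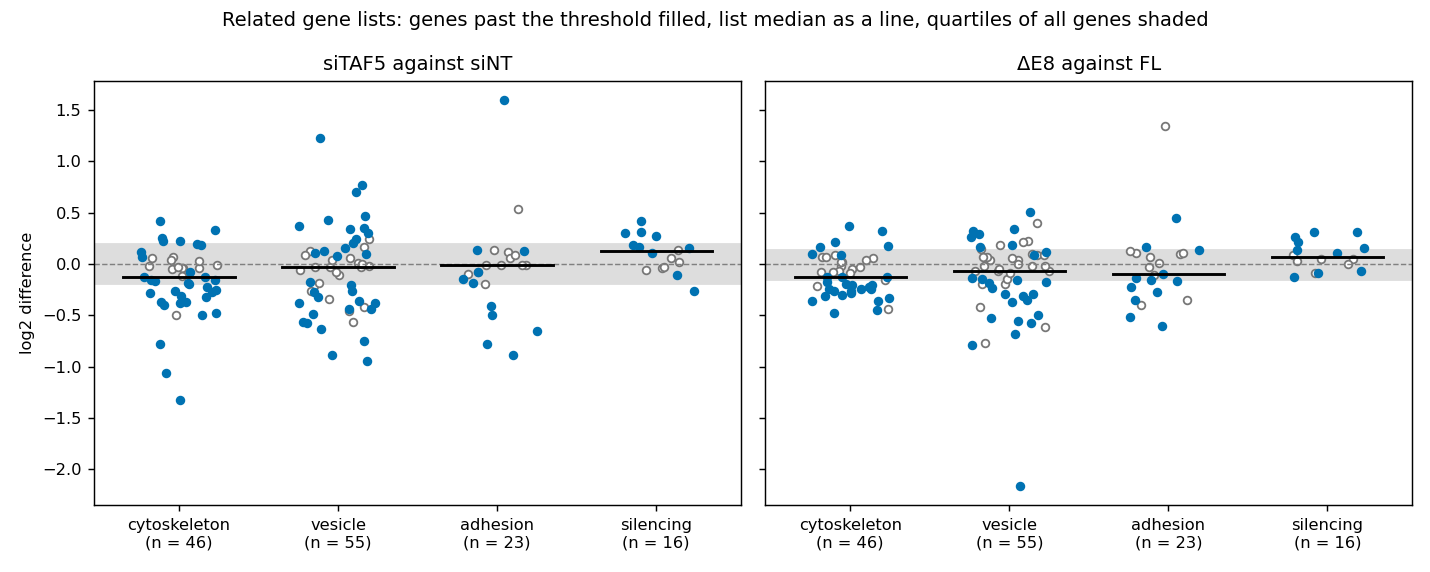
Log2 difference of each tested gene of the 4 related lists in siTAF5 against siNT (left) and ΔE8 against FL (right, vertical axis). Filled points passed an adjusted p of 0.05, the black line is the list median, and the shaded band spans the quartiles of all tested genes. The cytoskeleton median is -0.13 in both panels, and the list of REST partners has medians of 0.12 and 0.07.

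The genes closest to RAB3A, STMN3 and ICAM5 over the 12 libraries were found by the root mean square difference of log2 CPM, each gene centred on its own mean, among 13431 genes. Closest to RAB3A were GCNT2 (0.137), CALML4 (0.144) and ENPP2 (0.151), where the median over all genes was 0.650. GCNT2 was at 7.96 ± 0.202, 4.00 ± 0.338, 4.28 ± 0.217 and 2.76 ± 0.362 CPM in siNT, siTAF5, FL and ΔE8. Closest to STMN3 were C19orf54 (0.046), ATP6V0E2-AS1 (0.059) and PGBD5 (0.062), with a median of 0.234. C19orf54 was at 70.3 ± 1.24, 61.3 ± 0.189, 85.1 ± 0.836 and 62.4 ± 0.836 CPM. Closest to ICAM5 were VSTM2B (0.130), STC1 (0.138) and COL23A1 (0.141), with a median of 0.739. STC1 was at 12.1 ± 0.751, 8.93 ± 0.4, 3.51 ± 1.01 and 4.14 ± 0.402 CPM. These distances share libraries and scaling and are given with no test.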

How the data were processed

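Per the labels, poly(A) RNA of 12 libraries in 4 groups of 3 was prepared with a stranded mRNA kit. The authors deposited estimated counts per gene, made from the reads and not normalized, per the file headers and values, with fractions in 45.1% of entries. Without giving roles, the submitters' processing notes list the build hg38, Partek 10.0.23.0531, STAR 2.7.0f, DESeq2 and cutadapt 1.18. The sources used here give no quantifier, annotation or strand setting. Positions are those of the table with 1 base taken from the stop, which then equalled the GENCODE 29 end for 70% of matched genes. Groups were taken from the sample titles.

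Counts were rounded, which moved no library total by more than 91.3, filtered with filterByExpr (minimum count 10) and scaled by trimmed mean of M values. The 12 libraries were fitted in a single edgeR 4.0.16 quasi-likelihood model with a mean per group (R 4.3.3), tested two-sided, and adjusted by Benjamini-Hochberg over 19424 genes, with a threshold of 0.05. The design was written for estimated counts. SE is the log2 difference divided by the square root of F. The fit was tested on simulated data. DESeq2 1.42.0, other scalings, no filter, a replicate block, fits of the 2 groups alone and leaving out each library were alternatives. Lengths are unions of GENCODE 29 exons. Replicate pairs of a group differed by more than sampling noise (chi-square per degree of freedom 2.58 to 5.02), so none was counted as a duplicate.

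The members and lists were chosen with earlier results of these data known. Named genes were all members, a fixed set of relatives and the 3 closest genes to each of RAB3A, STMN3 and ICAM5. Added to these were up to 4 genes per list with the largest called change for siTAF5 against siNT and for ΔE8 against FL. Those had a mean log2 CPM of at least 1 over all 12 libraries, not only those compared, and no overlap between groups. ICAM4 and RAB3C came under none of these rules and were named after their values were seen.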

Additional observations from a re-analysis of the deposited data

Results flagged for a closer look

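Of the 7 tested members, 4 differed between the exon 8-lacking and the full-length add-back in the direct test of ΔE8 minus FL (edgeR adjusted p under 0.05). In that comparison 37% of all 19424 tested genes were called. The log2 differences were -0.124 for INA, 0.249 for TUBB3, 0.339 for MAP2 and -0.324 for SYP. The INA call was lost without ΔE8 replicate 2 (edgeR adjusted p = 0.0558). FL against siTAF5 was itself not called for TUBB3 (edgeR adjusted p = 0.187). RAB3A went opposite ways, with the 3 FL libraries above and the 3 ΔE8 libraries below siTAF5. Its log2 difference was -0.898, which was not tested because RAB3A was picked for a change. FL and ΔE8 differ in line and doxycycline dose as well as in isoform, and these cannot be told apart.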

How the results depend on the processing

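Of 42 tested changes (7 members in 6 comparisons), 29 kept their direction and their side of the threshold under the alternatives run for them. The number of tested members called was within 1.5 times the reported one under other scalings, DESeq2, no filter and the 2 groups alone. Leaving out a library gave 4 to 6 members in siTAF5 against siNT (7 reported, 4 without siNT replicate 1) and 3 to 5 in ΔE8 against siTAF5 (5 reported, 3 without ΔE8 replicate 3), in fits with 1 library fewer. Sign changes were seen in differences near 0 that no setting called. Leaving out a library gave NEFM -0.049 to 0.223 in FL against siTAF5 (-0.019 and -0.020 without FL replicates 1 and 2, -0.049 without siTAF5 replicate 1) and -0.238 to 0.070 in ΔE8 against siTAF5 (0.054 without ΔE8 replicate 3, 0.070 without siTAF5 replicate 2). It gave NEFH -0.037 (without siTAF5 replicate 1) to 0.188 in FL against siTAF5, and MAP2 -0.077 to 0.056 in ΔE8 against siNT (0.029 without ΔE8 replicate 3, 0.056 without siNT replicate 3). The 3 members picked for a change moved by less than the spread between replicates throughout.

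With the replicate number as a block, 7, 4, 5, 4, 6 and 6 members were called in the 6 comparisons, as without it, and no count of all genes called moved by over 1.5 times. With the block, more genes were called in each comparison. Same-numbered libraries correlated between -0.051 and 0.051 in their deviations from group means, and differently numbered ones of other groups between -0.074 and 0.048. Yet 10 of 12 libraries correlated best with their own number. The labels do not say what a shared number marks, and this was not tested. Depth limits NEFH (10 to 38 counts) and NEFM (38 to 104). With scaling by library totals the median log2 change of all genes lay between -0.053 and 0.034, and the calls in FL against siTAF5 went to 3748 higher and 5788 lower, from 4745 and 4732, and in siTAF5 against siNT to 5662 and 4140, from 4802 and 4848.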
